A study of Homo sapiens with 6 samples.

Results

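The genes described are 10 Eph receptors and ephrins that colon epithelium is known to use. They are the receptors EPHA1, EPHA2, EPHA4, EPHB2, EPHB3 and EPHB4 and the ligands EFNA1, EFNA4, EFNB1 and EFNB2, taken by gene symbol from a fixed list, 10 of the 35810 genes with a matched transcript. RNA-seq was made from polyadenylated RNA of SPT5-AID cells, a line derived from the colorectal adenocarcinoma line DLD-1 in which SPT5, an elongation factor of RNA polymerase II (Pol II), carries an auxin-inducible degron. Both groups carry this degron and a lentiviral short hairpin RNA selected with puromycin. In shARMC5 cells it targets ARMC5, which encodes a BTB adaptor of the ubiquitin ligase CUL3, and in shNT cells it is nontargeting, with 3 replicate libraries each. The labels name no auxin for these libraries and no separate cultures behind the replicates, although the study's methods speak in general of biological replicates, and p-values measure the spread between these libraries. The sources used here do not name the ARMC5 construct of these libraries, and an effect of the construct and of the loss of ARMC5 cannot be told apart.

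Eph receptors form the largest family of receptor tyrosine kinases and bind ephrins on the surface of neighbouring cells. Ephrins of the A class are held in the membrane by a lipid anchor and those of the B class span it, and a contact can signal into both cells, often to make them adhere less or move apart. In the intestine, EPHB2 and EPHB3 are targets of β-catenin and TCF in the crypt base, while EFNB1 is higher toward the surface, and this opposition keeps the cell types of the crypt in place. EPHA2 binds EFNA1 and is common in carcinoma cells, where it can also act without ligand.

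EPHA2 rose and EPHB2 fell in shARMC5 cells, and the other 8 genes were not called. EPHA2 was 1.26-fold its shNT level and EPHB2 was 0.783-fold. Both genes lie on the short arm of chromosome 1. The 250 bases before their RefSeq start sites (GRCh38.p14) are shown because these are the members whose level changed. The EPHA2 window lies at chr1:16156070-16156319 on the minus strand and the EPHB2 window at chr1:22710588-22710837 on the plus strand. Capitals mark matches to the TEAD motif CATTCC, the AP-1 motif TGANTCA or the TCF/LEF core CTTTGA on either strand.

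EPHA2: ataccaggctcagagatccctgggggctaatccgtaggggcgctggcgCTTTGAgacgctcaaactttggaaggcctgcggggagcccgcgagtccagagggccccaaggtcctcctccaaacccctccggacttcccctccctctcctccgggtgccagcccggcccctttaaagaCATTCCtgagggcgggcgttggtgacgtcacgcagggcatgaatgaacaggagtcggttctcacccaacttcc

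EPHB2: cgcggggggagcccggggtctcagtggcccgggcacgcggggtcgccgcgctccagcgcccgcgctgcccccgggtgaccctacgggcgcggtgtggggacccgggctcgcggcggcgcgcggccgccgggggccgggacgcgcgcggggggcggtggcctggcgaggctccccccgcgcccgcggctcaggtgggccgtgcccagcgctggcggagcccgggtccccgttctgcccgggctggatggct

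The EPHA2 window held the TEAD motif with its first base 73 bases before the start and the TCF/LEF core 202 bases before it, and these matches do not overlap. The EPHB2 window held none of these motifs. The window of its other RefSeq start, at chr1:22710589-22710838, held none either, but it is almost the same sequence and adds no separate result. GC made up 63.2% of the EPHA2 window and 84.8% of the EPHB2 window, against a median of 58% over all windows. All 10 genes matched the RefSeq table, with 12 windows among them. Of these, 1 held the TEAD motif, 1 the TCF/LEF core and 0 the AP-1 motif. Over all 35116 windows of that length the shares were 11.9%, 11.2% and 6.57%. A match is a description of the letters in the window and not a binding site.

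The libraries held between 26201112 and 40866478 estimated reads. ARMC5 itself was at 10.8, 12 and 12.9 TMM-normalized CPM (reads per 1000000 on genes) in shARMC5 replicates 1, 2 and 3 and at 23, 25.9 and 26.7 CPM in shNT replicates 1, 2 and 3, -1.09 ± 0.08 on the log2 scale (± SE, adjusted P = 5.32e-07 by edgeR). Errors of log2 fold changes are given as SE throughout. Of 8 markers of colon epithelium, 7 passed the count filter, and LGALS4 did not, with 3 to 13 reads per library. The summed level of these markers was 8532 to 8831 TPM (transcripts per 1000000, a scale per length) in shARMC5 and 7535 to 8053 TPM in shNT cells. Among them KRT8, KRT18 and KRT19 were called higher and VIL1, which encodes villin of the brush border, fell by 1.30 ± 0.11 on the log2 scale (adjusted P = 2.77e-06 by edgeR). KRT8 alone held 3455.5 to 3649.2 TPM of the sum in shARMC5 and 3060 to 3306.8 TPM in shNT cells. EPCAM, CDH1 and CDX2 were not called, with log2 fold changes of 0.03, 0.00 and 0.01. Of the 7 tested markers 57.1% were called, against 7.75% of all tested genes. Markers of fibroblasts, endothelium and leukocytes summed to at most 1.31, 0.389 and 2.47 TPM in any library, and 2 genes of each of these lists were at 0 in every library. The part of the marker changes in the results below was not tested.

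Levels of different genes were compared in TPM. EFNB2, the ephrin-B2 ligand, was the most abundant member in shNT cells with 54.8 ± 2.37 TPM (SD, n = 3), followed by EPHB4, its main receptor, with 43.3 ± 2.0 TPM and EPHA2 with 42.8 ± 1.20 TPM. The ranges of EPHB4 and EPHA2 over the shNT libraries overlapped, while EFNB2 lay above both in every shNT library. A second tier followed with EFNA1 at 20.7 ± 2.49 TPM, EPHB2 at 18.2 ± 1.70, EPHB3 at 16.6 ± 1.44, EPHA1 at 15.6 ± 1.76 and EFNA4 at 14.7 ± 1.99 TPM, in which each gene's range overlapped the next. EFNB1 at 4.14 ± 0.634 TPM and EPHA4 at 1.54 ± 0.360 TPM lay below all others in every shNT library, and EFNB1 above EPHA4. With normalized counts per 1000 bases of the transcript with the most reads in place of TPM, the neighbours EPHB4 and EPHA2, EFNA1 and EPHB2, and EPHA1 and EFNA4 exchanged places and the rest of the order was kept.

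**Figure D1:**
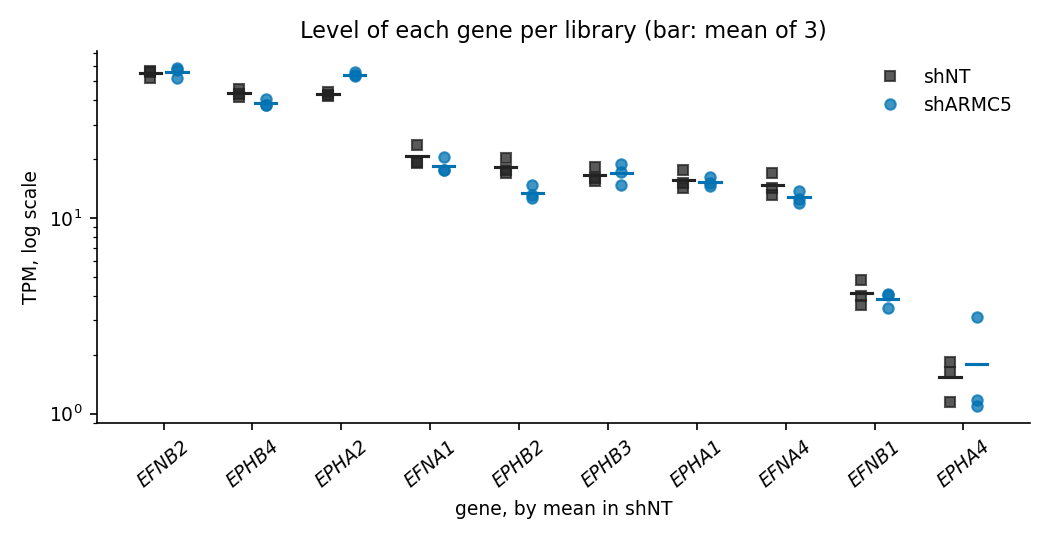
Level in TPM (log axis) of each gene in the 3 shNT libraries (squares) and the 3 shARMC5 libraries (circles), with the mean as a bar, ordered by the shNT mean. EFNB2, EPHB4 and EPHA2 form the upper tier, and the EPHA2 circles lie above its squares while the EPHB2 circles lie below.

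EPHA2 (ENSG00000142627), the main receptor of ephrin-A1, occupies chr1:16124337-16156069 on the minus strand of GRCh38. Its level was 143, 138 and 141 CPM in shARMC5 replicates 1, 2 and 3 and 110, 112 and 113 CPM in shNT replicates 1, 2 and 3. Each shARMC5 library lay above each shNT library, and the lowest of the former exceeded the highest of the latter by more than the range of either group. The log2 fold change was 0.34 ± 0.03 (95% interval 0.27 to 0.40, adjusted P = 4.80e-06 by edgeR), which placed EPHA2 at rank 20 of 13737 genes by P value. The gene was covered by 3162 to 5455 reads per library. Of the 1064 genes called, 80.8% had a smaller absolute log2 fold change. Its 5′ end overlaps the antisense gene EPHA2-AS1, which has no value here. The log2 fold change lay between 0.32 and 0.35 under the alternatives and with any library left out.

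EPHB2 (ENSG00000133216), a receptor of B-class ephrins that marks the crypt base, occupies chr1:22710839-22921500 on the plus strand. It was at 40.3, 36 and 36.2 CPM in shARMC5 replicates 1, 2 and 3 and at 51.1, 45.2 and 47.2 CPM in shNT replicates 1, 2 and 3. All shARMC5 libraries lay below all shNT libraries. The log2 fold change was -0.35 ± 0.06 (95% interval -0.48 to -0.23, adjusted P = 0.00161 by edgeR), rank 150 by P value, on 912 to 1672 reads per library. It lay between -0.42 and -0.30 under the alternatives and with any library left out. In RNA from a whole culture, fewer cells that express a gene and less RNA per cell cannot be told apart.

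Of the 10 members, 1 was called higher and 1 lower, against 4.44% of all 13737 tested genes called higher and 3.30% called lower, and 7.75% called in either direction. Scaled by library size alone, the split over all genes was 458 higher and 495 lower in place of 610 and 454, and the same members were called. A gene was called where the adjusted P value was under 0.1. The median log2 fold change of the members was -0.08, beside 0.00 over all genes tested, with 3 positive and 7 negative. In CPM the groups did not overlap for 3 of the 10, EPHA2, EPHB2 and EFNA1, against 23.4% of all tested genes. These counts describe a short list that was chosen with results known.

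**Figure D2:**
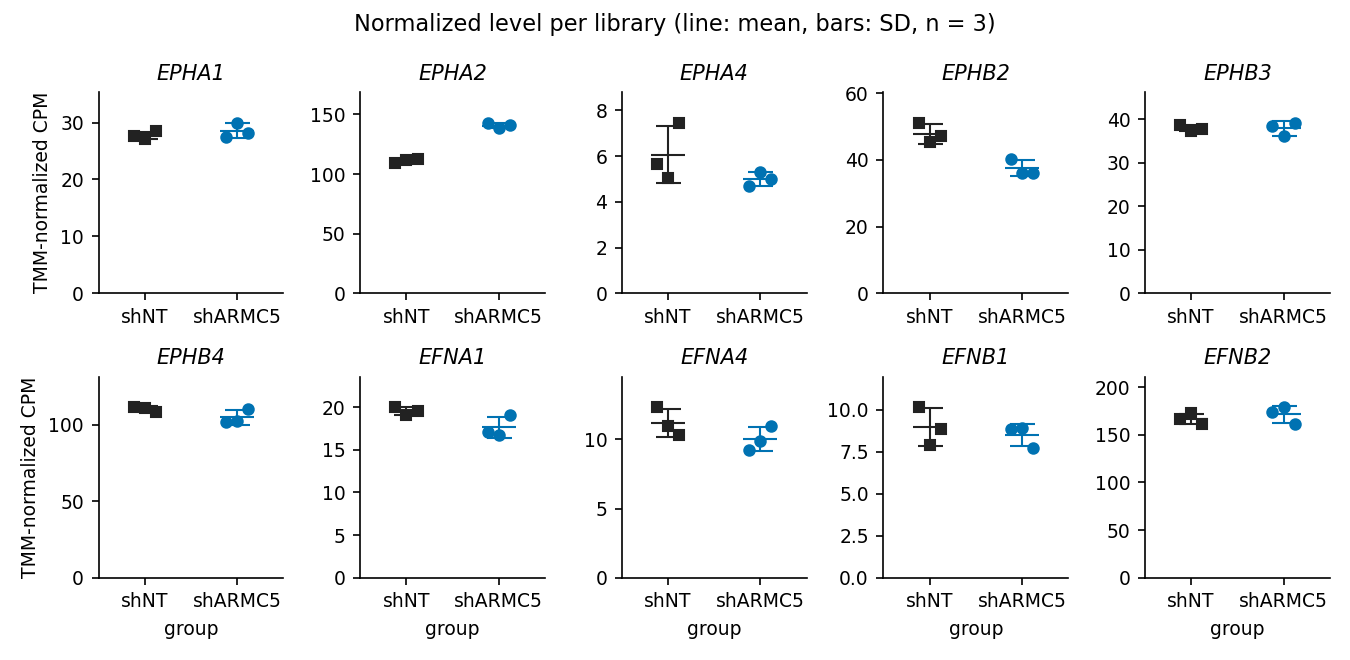
TMM-normalized CPM of each gene per library in shNT (squares) and shARMC5 cells (circles), with the mean as a line and the SD as bars (n = 3), each axis from 0. The groups stand apart for EPHA2 (138 to 143 against 110 to 113 CPM) and EPHB2 (36 to 40.3 against 45.2 to 51.1 CPM) and narrowly for EFNA1.

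EPHB3, another receptor of B-class ephrins, was at 38.4, 36.1 and 39.2 CPM in shARMC5 and at 38.7, 37.4 and 37.8 CPM in shNT replicates 1, 2 and 3. The groups overlapped throughout, and the log2 fold change was 0.00 with 2 decimals (SE 0.05, 95% interval -0.12 to 0.11, adjusted P = 0.977 by edgeR). The 95% intervals of EPHB2 and EPHB3 do not overlap, and the difference between these genes was not tested. The ratio of EPHB2 to EPHB3 in TPM was 0.804 ± 0.119 in shARMC5 and 1.10 ± 0.00798 in shNT cells (SD, n = 3 each), given here as a description.

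EPHB4, the receptor of ephrin-B2, was at 102, 102 and 111 CPM in shARMC5 and at 111, 111 and 109 CPM in shNT replicates 1, 2 and 3. Replicate 3 of shARMC5 lay among the shNT libraries and the other shARMC5 libraries lay below them. The log2 fold change was -0.07 ± 0.04 (adjusted P = 0.296 by edgeR). In TPM, in contrast, all shARMC5 libraries (40.5, 37.7 and 37.8) lay below all shNT libraries (45.4, 42.9 and 41.5). EPHB4 was called lower by DESeq2 with an offset for the average transcript length, with a log2 fold change of -0.15 (adjusted P = 0.0839), where 4.90% of genes with an adjusted P value were called, and by edgeR without shARMC5 replicate 3, with -0.11 (adjusted P = 0.0982). With the same offset in edgeR, which called 1.71% of genes, EPHB4 had -0.14 (adjusted P = 0.193). It was not called in 15 of 17 alternatives. The first bases of EPHB4 overlap those of SLC12A9 on the opposite strand, and the library kit named in the labels does not mark strand.

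EPHA1, a receptor of ephrin-A1, was at 27.4, 30 and 28.2 CPM in shARMC5 and at 27.7, 27.2 and 28.4 CPM in shNT replicates 1, 2 and 3, with groups that overlapped (log2 fold change 0.04 ± 0.06, adjusted P = 0.783 by edgeR). Its 3′ end overlaps that of ZYX, which lies on the opposite strand, was covered by 3161 to 5125 reads and was called higher (log2 fold change 0.23, adjusted P = 0.000874 by edgeR). Reads of both genes in that stretch cannot be told apart without strand, and their part in the value of EPHA1 was not tested.

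EPHA4, which binds ephrins of both classes, was the least abundant member, with 126 to 209 reads per library. It was at 4.69, 5.3 and 5 CPM in shARMC5 and at 5.66, 5.06 and 7.46 CPM in shNT replicates 1, 2 and 3. The highest value, of shNT replicate 3, stood apart, and the groups overlapped. The log2 fold change was -0.27 ± 0.15 (95% interval -0.59 to 0.04, adjusted P = 0.359 by edgeR), and -0.10 without shNT replicate 3. With the transcript length offset its sign changed, to 0.21 in edgeR and 0.23 in DESeq2. In TPM, shARMC5 replicate 2 was at 3.12 while the other libraries lay between 1.10 and 1.84. That library alone had reads on the short transcripts EPHA4-208, of 565 bases, and EPHA4-214, of 558 bases, which took 5.77% and 5.44% of the reads of the gene.

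None of the 4 ephrins was called by edgeR or by DESeq2, which called 7.39% of the genes to which it gave an adjusted P value. At an unadjusted P under 0.05 edgeR counted 1 of the 4, EFNA1, against 18.1% of all tested genes. EFNA1, the ligand of EPHA2, was at 17.1, 16.8 and 19.1 CPM in shARMC5 and at 20, 19.1 and 19.6 CPM in shNT replicates 1, 2 and 3. The highest shARMC5 and the lowest shNT library were both at 19.1 CPM, so that the groups only just failed to overlap. In TPM they did overlap, with shARMC5 replicate 3 at 20.5 and shNT replicates 2 and 3 at 19.1 and 19.4. The log2 fold change was -0.15 ± 0.07 (95% interval -0.30 to -0.0048), and the adjusted P value was 0.260 by edgeR. EFNA4, another A-class ligand, was at 9.24, 9.86 and 10.9 CPM against 12.3, 10.9 and 10.3 CPM, groups that overlapped (log2 fold change -0.17 ± 0.10, adjusted P = 0.404 by edgeR). EFNB1, the ligand opposed to EPHB2 in the crypt, was at 8.84, 8.9 and 7.73 CPM against 10.2, 7.93 and 8.89 CPM, with no separation between the groups (log2 fold change -0.08 ± 0.11, adjusted P = 0.774 by edgeR). EFNB2 was at 174, 179 and 161 CPM against 167, 172 and 162 CPM, again with overlap (log2 fold change 0.04 ± 0.04, adjusted P = 0.648 by edgeR).

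For the 8 members not called, the 95% intervals of edgeR without a length offset ran from 0.664-fold (the lower bound of EPHA4) to 1.12-fold (the upper bound of EPHA1). These bounds do not hold with the offset. EPHA4 was then at 0.21 ± 0.41 on the log2 scale in edgeR and at 0.23 ± 0.38 in DESeq2. EPHB3 was at 0.05 ± 0.10 in edgeR and 0.05 ± 0.11 in DESeq2, and EFNB1 at -0.08 ± 0.17 in DESeq2. For EFNB2, the best covered of the 8 with 4072 to 7052 reads per library, the interval without the offset was 0.972-fold to 1.09-fold.

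**Figure D3:**
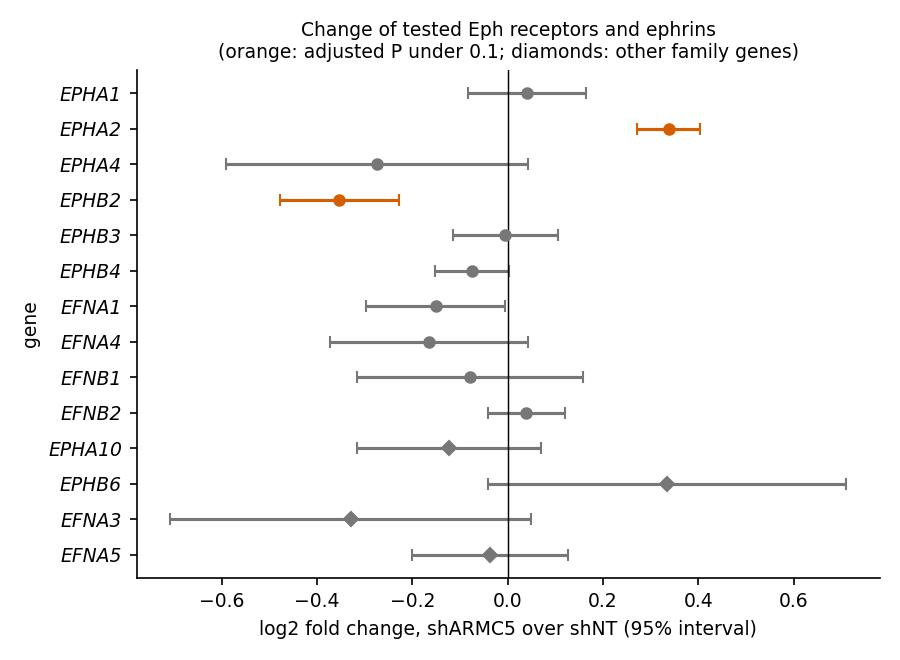
Log2 fold change of shARMC5 over shNT with its 95% interval for the 10 members (circles) and the 4 other family genes that passed the count filter (diamonds), with orange for an adjusted P under 0.1. EPHA2 at 0.34 and EPHB2 at -0.35 lie on opposite sides of 0, and the intervals of EPHA4, EPHB6 and EFNA3 are the widest.

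The sum of the 6 receptors was 140 ± 3.16 TPM in shARMC5 and 138 ± 7.88 TPM in shNT cells (SD, n = 3 each), and that of the 4 ephrins 91.0 ± 1.54 and 94.3 ± 6.86 TPM. Both pairs of ranges overlapped. Within the receptor sum, EPHA2 made up 38.7%, 38.7% and 38.3% in shARMC5 and 30.0%, 32.0% and 31.3% in shNT replicates 1, 2 and 3. EPHB2 made up 10.2%, 9.49% and 9.12% in shARMC5 and 13.7%, 12.7% and 13.1% in shNT cells. EPHB4, which was not called, made up 28.2%, 27.3% and 27.3% in shARMC5 and 30.9%, 32.2% and 31.0% in shNT cells. The shARMC5 shares of EPHB2 and EPHB4 lay below all their shNT shares. The ratio of EPHA2 to EPHB2 was 4.02 ± 0.204 in shARMC5 and 2.37 ± 0.161 in shNT cells, and that of EPHA2 to its ligand EFNA1 2.94 ± 0.311 and 2.08 ± 0.186. These sums and ratios are built from members whose changes are given above, and they are descriptions without a test.

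Transcripts of the members were read from the same estimates. EPHA2-201, of 3946 bases, held 99.1% to 99.7% of the EPHA2 reads in each library. Fitted as a transcript, it had a log2 fold change of 0.34 ± 0.03 but an adjusted P value of 0.119 in edgeR's test over 49809 transcripts, of which 4 (0.00803%) were called. EPHB2 was divided among 5 transcripts that passed the filter. EPHB2-203, of 3677 bases, held 52.6% to 59.5% of its reads, and its log2 fold change was -0.32 ± 0.07, with an adjusted P of 0.392. EPHB2-204, of 10816 bases, had -0.32 ± 0.13 and EPHB2-202, of 3152 bases, had -0.33 ± 0.31. EPHB2-207, of 1709 bases, had -0.98 ± 0.28 on that scale (adjusted P = 0.714) and made up 3.03%, 3.63% and 4.19% of the gene in shARMC5 and 4.98%, 5.11% and 6.62% in shNT replicates 1, 2 and 3. None of the transcripts of the members was called.

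The estimates of minor transcripts varied between replicates. EPHB4-202 was at 0% of the EPHB4 reads in shARMC5 replicate 1 and at 8.12% in replicate 3, against 3.46% to 4.86% in shNT cells. EPHB4-205 was at 3.89% in shARMC5 replicate 1 and at 0% in replicate 3. EFNA1-201 held 4.74% to 24.5% of the EFNA1 reads, the highest share in shNT replicate 1. EFNB2-201 held 20.5% to 28.4% of the EFNB2 reads beside EFNB2-202, and EFNB1 had a single listed transcript. Reads that several transcripts share are divided among them by the estimate.

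**Figure D4:**
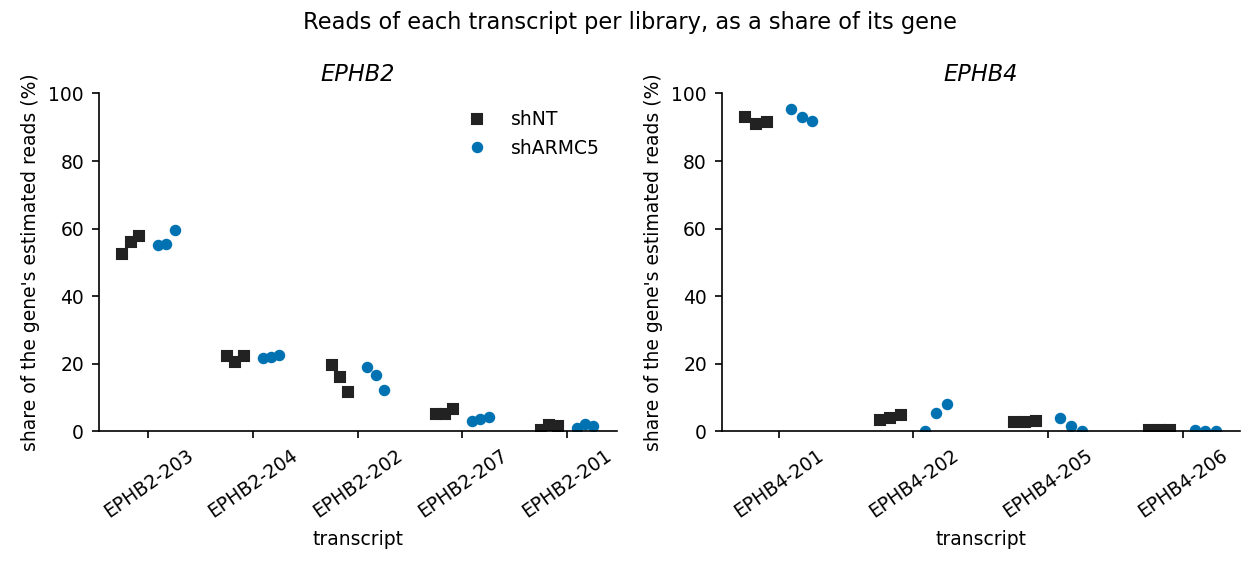
Share of the estimated reads of EPHB2 (left) and EPHB4 (right) on each transcript that passed the count filter, per library, in shNT (squares) and shARMC5 cells (circles). EPHB2-203 held at least 52.6% of the EPHB2 reads in every library, and the shares of EPHB4-202 and EPHB4-205 differed among the shARMC5 libraries.

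Among the other 12 Eph receptors and ephrins of the human family, 4 passed the count filter and 0 were called with edgeR. At an unadjusted P under 0.05, which 18.1% of all tested genes passed, the count was also 0. EPHB6, a receptor without kinase activity, was at 20.2, 20.1 and 25.3 CPM in shARMC5 and at 18.3, 19.5 and 14 CPM in shNT replicates 1, 2 and 3. Its groups did not overlap, and the log2 fold change was 0.33 ± 0.15 (adjusted P = 0.332 by edgeR). It was called by DESeq2 (adjusted P = 0.0911) and by edgeR on all genes with a count, where 7.18% were called (adjusted P = 0.000753), and its value lay between 0.21 and 0.43 with a library left out. EPHA10, also without an active kinase, had a log2 fold change of -0.12 ± 0.09 on 287 to 508 reads. EFNA3 had -0.33 ± 0.18 on 112 to 172 reads and EFNA5 -0.04 ± 0.08 on 357 to 508 reads. With a library left out, EFNA3 lay between -0.49 and -0.17 and EPHA10 between -0.21 and -0.06. The length offset gave -0.30 for EPHA10 and -0.19 for EFNA5, in edgeR and in DESeq2. The remaining 8, EPHA3, EPHA5, EPHA6, EPHA7, EPHA8, EPHB1, EFNA2 and EFNB3, had at most 6 reads in any library.

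Proteins that carry or end the signal were taken from lists with 46 genes, of which 45 were tested, 4 were called higher and 2 lower, 13.3% against 7.75% of all tested genes. The median log2 fold change was 0.00, as over all genes. Among kinases and adaptors, SHB, an SH2 adaptor, rose by 0.17 ± 0.04 (adjusted P = 0.0262 by edgeR) and SDCBP, which encodes the PDZ protein syntenin that binds ephrin-B tails, rose by 0.10 ± 0.03 (adjusted P = 0.0402). The other 16 of these 18 genes, with SRC, FYN and NCK2 among them, were not called. Of 15 tested exchange factors and GTPase-activating proteins, KALRN, an exchange factor downstream of EphB receptors, rose by 0.68 ± 0.20 (adjusted P = 0.0595 by edgeR) from 1.64 ± 0.0901 to 2.64 ± 0.0307 CPM (SD, n = 3 each). DESeq2 did not call KALRN. SIPA1L1, which encodes a Rap GTPase-activating protein, fell by 0.10 ± 0.03 (adjusted P = 0.0521).

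Of the 12 tested proteases, phosphatases and CBL ligases, PTPN1, which encodes a tyrosine phosphatase of many receptors, rose by 0.20 ± 0.04 on the log2 scale (adjusted P = 0.00313 by edgeR). PTPRF, a receptor phosphatase, fell by 0.15 ± 0.04 (adjusted P = 0.0548). ADAM10, the protease that cleaves ephrins, was not called (log2 fold change -0.04 ± 0.03).

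Of 8 genes of WNT signalling and the crypt base, LGR5 and ASCL2 were called, both lower, by edgeR and by DESeq2. They make up 25% of the list. Of all tested genes, edgeR called 7.75% in either direction and 3.30% lower. LGR5, a stem cell receptor, was at 34.5, 34.7 and 34.9 CPM in shARMC5 and at 43, 42.6 and 45.5 CPM in shNT replicates 1, 2 and 3 (log2 fold change -0.33 ± 0.05, adjusted P = 0.000787 by edgeR). ASCL2, a transcription factor of these stem cells, fell by 0.24 ± 0.03 on the log2 scale (adjusted P = 6.81e-05). AXIN2, a common readout of β-catenin, had 606 ± 7.69 and 600.4 ± 2.71 CPM (SD, n = 3 each; log2 fold change 0.01, adjusted P = 0.855), and RNF43, ZNRF3, NKD1, LEF1 and TCF7 were not called either, with values from -0.06 to 0.12.

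**Figure D5:**
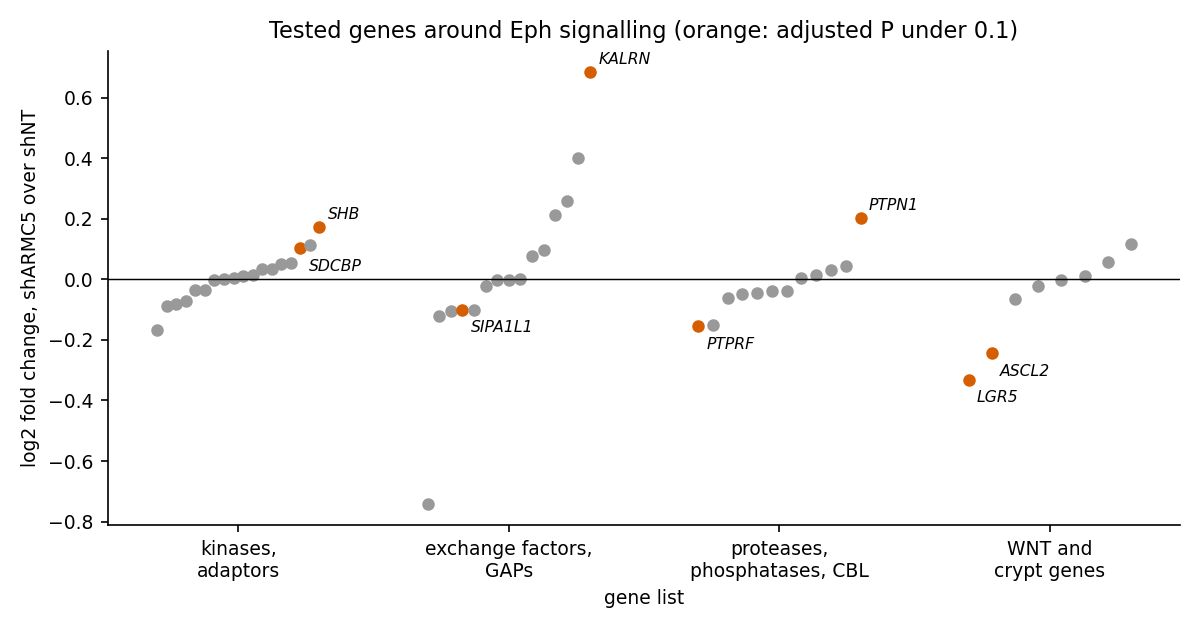
Log2 fold change of shARMC5 over shNT (vertical axis) for each tested gene of the 3 partner lists and the WNT and crypt list, ordered by value within a list, with orange for an adjusted P under 0.1. LGR5 at -0.33 and ASCL2 at -0.24 stand below their list, and KALRN at 0.68 stands above its own.

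The genes whose level was most like that of EPHA2 over the 6 libraries were sought among 10368 genes whose mean reached 5 CPM, by the root mean square difference of centred log2 CPM. The nearest were FSCN1, which encodes the actin bundling protein fascin, at 0.021, TIMP2, a metalloproteinase inhibitor, at 0.026 and CHPF, an enzyme of chondroitin synthesis, at 0.028 on the log2 scale. Their log2 fold changes were 0.32, 0.32 and 0.32. The measure covers both groups and so holds the difference between them, and it is given without a test.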

How the data were processed

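Polyadenylated RNA of 3 shARMC5 and 3 shNT libraries was analysed, with groups and replicate numbers from the labels. Reads were trimmed for quality by the authors (cutadapt 4.2), who then estimated transcript abundance on hg38 using Salmon 1.9.0 and its GC correction. The deposited files hold an estimated count and a TPM value, normalized by the authors' tool within each library, with the length and effective length of each transcript. The transcript set is not given in the sources used here.

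The 177456 transcripts were matched without version to GENCODE 44, and the 11923 without a match (2.96% to 3.04% of reads) were left out. Estimated counts were summed per gene and rounded, and TPM summed. A gene was tested if 3 or more libraries had 10 or more counts. edgeR 4.0.16 under R 4.3.3 gave the quasi-likelihood test (robust, TMM, no covariate), and P values of all 13737 genes were adjusted by Benjamini-Hochberg, with a threshold of 0.1. Standard errors are the absolute log2 fold change divided by the root of F, and 95% intervals use its degrees of freedom. Counting error limits genes with few reads.

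Alternatives were DESeq2 1.42.0 size factors or library size alone in edgeR, a transcript length offset, DESeq2 without and with that offset, other count filters, a replicate block, each library left out, a threshold of 0.05, unmatched transcripts listed next to a gene added to it, and the transcript with the most reads. The fit was tried on simulated data, and no result of that trial is given or used here. Named were all members, tested family genes, called partner and WNT genes, the 3 genes nearest EPHA2, and ZYX, seen to overlap EPHA1. Uncalled genes with values were chosen after their values were seen. The members and lists were chosen with earlier results of these data known. Promoter windows are from RefSeq (GRCh38.p14). Summaries used Python 3.11.15 and pandas 2.3.3. A partner list fixed at the outset is not reported here.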

Additional observations from a re-analysis of the deposited data

Results flagged for a closer look

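Unmatched transcripts listed near a member were flagged where the shARMC5 mean exceeded the highest shNT library, so a higher shARMC5 level follows from this rule. The transcript flagged, ENST00000456550, of 198 bases, matched no gene of GENCODE 44 and is listed within 2 places after the transcripts of EPHB4. It had 0, 25.4 and 32.4 estimated reads in shARMC5 replicates 1, 2 and 3 and 0 in each shNT library, above the level in the control libraries but absent from 1 shARMC5 library. Its gene was not identified here, and no test was made. ENST00000400351, an unmatched transcript listed near EFNB2 and not flagged, also varied between replicates. It had 12.6, 72.3 and 26.4 estimated reads in shARMC5 and 91.4, 35.3 and 0 in shNT replicates 1, 2 and 3.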

How the results depend on the processing

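EPHA2 stayed called higher and EPHB2 called lower in 16 of 17 alternatives each. The exception in both cases was the transcript with the most reads (adjusted P = 0.119 and 0.392), in a fit that called 4 transcripts. Members were not counted in that fit or in the one with unmatched transcripts added. In the 15 alternatives for which they were counted, the number of members called higher was 1, and the number called lower 1, except 2 with DESeq2 and the length offset and 1 to 2 with a library left out (2 without shARMC5 replicate 3). Over all genes, 1064 calls became 568 with DESeq2 and the length offset, 235 with that offset in edgeR, 676 at a threshold of 0.05 and 1766 with the replicate block, and 536 to 1085 with a library left out, with 536 without shNT replicate 1, 600 without shARMC5 replicate 2 and 694 without shNT replicate 3. Deviations of same-numbered libraries correlated at -0.022, 0.015 and 0.109 over 10369 genes, and those of differently numbered libraries at -0.132 to 0.107. So few values cannot settle whether the numbers pair the libraries. The replicate block changed no call among the members. ARMC5 lay between -1.15 and -1.02 on the log2 scale with a library left out. Signs changed, with no gene called either way, with the length offset in edgeR and DESeq2 for EPHA1 (-0.0139 and -0.0142), EPHA4 (0.2139 and 0.2272) and EPHB3 (0.0487 and 0.0485). With a library left out, EPHB3 lay between -0.0311 and 0.0315, EFNB1 between -0.1636 and 0.0195 and EFNA5 between -0.0643 and 0.0057. In the same fits, without a change of sign, EFNA4 lay between -0.2324 and -0.0903, EFNB2 between 0.0064 and 0.0771 and EPHA1 between 0.0011 and 0.07. The cause of these changes was not tested. Among the tested family genes, EFNA3, EPHA4 and EFNB1 had the fewest reads, at most 351 per library.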
